A study of Mus musculus with 4 samples.

Results

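Red cell genes were followed on 4 Affymetrix arrays of mouse parietal peritoneum, the thin membrane that lines the abdominal wall. The genes are Alas2, Slc4a1, Car2, Trim10, Tent5c, Klf1 and Hba-a2, 7 of the 18193 named genes of the arrays, and they were selected for being high in transgenic tissue after chlorhexidine, on values of these same arrays. Their contrasts between arrays are therefore descriptions, with no test and no independent support for the pattern that chose them. The label holds for Alas2, Slc4a1, Car2, Trim10 and Tent5c. It does not hold for Klf1, which was called Absent on every array, or for the probe set that reads Hba-a2 alone.

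Each group was 1 array of C57BL/6J peritoneum. The chlorhexidine-treated transgenic group (CG_Tg) and the chlorhexidine-treated wild-type group (CG_WT) received 0.1% chlorhexidine gluconate, an antiseptic that injures the peritoneum, dissolved in 15% ethanol and 85% phosphate-buffered saline. It was injected into the peritoneal cavity at 0.01 mL per g body weight, 3 times a week for 21 days. The vehicle-treated transgenic group (PBS_Tg) and the vehicle-treated wild-type group (PBS_WT) received ethanol and saline without it, with no volume or schedule given. The transgene, SAP-BNP-Tg, places brain natriuretic peptide under the serum amyloid P promoter, which is active in liver, so the peptide is made mainly there and released into the blood. The labels give no number of mice per array, no sex and no age. With 1 array per group no difference has a replicate check.

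Red cells arise in bone marrow, and in mice also in the spleen, from precursors that fill with haemoglobin, lose their nucleus and enter the blood as reticulocytes. Reticulocytes still carry messenger RNA for haemoglobin chains, haem synthesis and the membrane, and mature red cells hold little. The programme is driven by the transcription factors GATA1 and KLF1, which bind GATA and CACC-type motifs near many red cell genes. Peritoneum holds blood vessels but is no known site of red cell formation.

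The letters of such motifs stand in some of the promoters and not in others. RefSeq windows of build GRCm38.p6, running 250 bases before to 50 after the gene start, were matched for 5 of the 7 genes: Alas2, Hba-a2, Trim10, Klf1 and Tent5c. Slc4a1 and Car2 are named only. The motifs GATAA and CCACCC were searched on both strands in the 250 bases before the window's start position, and in these 5 windows no match of one overlapped a match of the other. GATAA stood in 4 of the 5 windows and in 22.6% of all 32851 windows. CCACCC stood in 3 of the 5 and in 28.1% of all windows. Alas2, Hba-a2 and Trim10 held both, as did 5.0% of all windows. The Trim10 window begins at a start that lies inside the gene as the RefSeq gene table places it, so its CCACCC letters fall within the gene and not before it. Klf1 held GATAA alone. The last 200 bases before the start are shown for the X-linked haem enzyme gene and the haemoglobin gene, which hold both motifs. They are also shown for Tent5c, which holds neither. Alas2 and Tent5c were called higher on the CG_Tg array, and Hba-a2 was not. Capitals mark the motifs in either orientation, and each runs 5' to 3' on the gene's strand.
Alas2, chrX:150547217-150547416, plus strand: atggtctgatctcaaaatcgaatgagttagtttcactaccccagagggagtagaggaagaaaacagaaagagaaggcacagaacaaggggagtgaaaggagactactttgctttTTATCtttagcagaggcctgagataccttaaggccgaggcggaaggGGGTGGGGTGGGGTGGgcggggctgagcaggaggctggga
Hba-a2, chr11:32296292-32296491, plus strand: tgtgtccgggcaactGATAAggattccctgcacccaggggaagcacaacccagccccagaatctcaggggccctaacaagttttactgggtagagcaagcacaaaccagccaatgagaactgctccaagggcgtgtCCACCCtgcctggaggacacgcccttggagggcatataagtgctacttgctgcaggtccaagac
Tent5c, chr3:100489193-100489392, minus strand: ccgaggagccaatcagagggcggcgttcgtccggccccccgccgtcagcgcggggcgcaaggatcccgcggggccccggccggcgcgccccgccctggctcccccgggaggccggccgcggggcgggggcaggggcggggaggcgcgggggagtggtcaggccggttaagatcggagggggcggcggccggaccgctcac
In Alas2 the GATAA letters lie 86 to 82 bases before the start, and 3 overlapping CCACCC copies lie at 40 to 35, 35 to 30 and 30 to 25 bases. In Hba-a2 GATAA lies 185 to 181 bases and CCACCC 64 to 59 bases before the start. A match shows letters only and says nothing of binding.

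Signals below are linear array intensities in arbitrary units after scaling to a common trimmed mean, so levels of different probe sets are not comparable. A call of Present, Marginal or Absent comes with each. A gene was called higher or lower where the log2 difference was at least 1 (2-fold) and the brighter array called it Present, with a signal at or above the 25th percentile of all Present signals there, 34.5 to 35.4 units. Where a gene had several probe sets (5938 genes), these differed among themselves with an SD of 0.469 for the log2 difference of the chlorhexidine arrays and 0.488 for chlorhexidine against vehicle in transgenic mice. This is a measure of disagreement within arrays, not of error between mice. In bulk tissue, fewer cells of a type and less RNA per cell cannot be told apart.

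Haem synthesis comes first. Alas2 encodes the erythroid aminolevulinate synthase, the rate-limiting enzyme of haem synthesis in red cell precursors, and lies on chromosome X at 150547417 to 150570622. Its only probe set, 1451675_a_at, read 1178 in chlorhexidine-treated transgenic tissue, 212 in chlorhexidine-treated wild type, 150.0 in vehicle-treated transgenic and 193 in vehicle-treated wild type. It was Present on all 4 arrays, and only the first array stood away from the others. The signal was 5.54-fold higher in chlorhexidine-treated transgenic tissue than in chlorhexidine-treated wild type, a log2 difference of 2.47, and 7.85-fold higher than in vehicle-treated transgenic tissue, 2.97. In wild type, the chlorhexidine array lay 0.14 log2 units above the vehicle array.

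Globins gave a divided picture. Hba-a2 encodes an alpha chain of adult haemoglobin, lies on chromosome 11 at 32296492 to 32297310, and shares most of its sequence with Hba-a1. Its own probe set, 1427219_at, read 15.0 in chlorhexidine-treated transgenic, 18.8 in chlorhexidine-treated wild-type, 11.1 in vehicle-treated transgenic and 7.96 in vehicle-treated wild-type tissue, Present on the first 2 only. All 4 values lay below the 25th percentile of Present signals, and the first array was 1.26-fold lower than the second. The 3 probe sets that read Hba-a2 and Hba-a1 together cannot be assigned to either gene. Of these, 1417714_x_at read 4827 in chlorhexidine-treated transgenic tissue, against 2245, 2302 and 2508 in CG_WT, PBS_Tg and PBS_WT. That is 2.15-fold, 2.10-fold and 1.92-fold higher. The second, 1428361_x_at, read 6318, 6851, 5822 and 7299 in CG_Tg, CG_WT, PBS_Tg and PBS_WT, and the third, 1452757_s_at, read 6658, 6978, 6412 and 7447 in CG_Tg, CG_WT, PBS_Tg and PBS_WT. Neither set the chlorhexidine-treated transgenic array apart, and both ranked 37 to 71 from the top of 45037 probe sets, near the highest signal of any array, 9317 to 11435. Whether differences are compressed at this end of the range was not tested. The probe set shared by beta globin genes, 1417184_s_at, read 6302, 6828, 5807 and 7448 in CG_Tg, CG_WT, PBS_Tg and PBS_WT and did not set it apart either. On the same arrays Hbb-b2 read 223, 58.2, 52.1 and 90.0 by 1427866_x_at, and Hba-a1 read 11.2, 2.46, 1.23 and 3.04 by 1453574_at. Both were highest in CG_Tg, but Hbb-b2 by 1427865_at was not, at 13.9, 23.6, 24.9 and 10.7. These probe sets were Absent on all 4 arrays, so no fold is given.

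The membrane gene showed the widest span. Slc4a1 encodes band 3, the anion exchanger that carries chloride and bicarbonate across the red cell membrane and anchors its skeleton, on chromosome 11 at 102348820 to 102365281. Probe set 1416464_at read 188 in chlorhexidine-treated transgenic tissue, 34.1 in chlorhexidine-treated wild type, 9.65 in vehicle-treated transgenic tissue and 27.9 in vehicle-treated wild type, Present on all. The fold was 5.53 against chlorhexidine-treated wild type, 19.5 against vehicle-treated transgenic and 6.76 against vehicle-treated wild type. The vehicle arrays differed from each other too: vehicle-treated transgenic tissue was 2.89-fold lower than vehicle-treated wild type, with both signals under the 25th percentile, so that this was not called. The 19.5-fold difference thus has a dim denominator, and with a pseudocount of 32 the log2 difference of 4.29 becomes 2.40. A second probe set, 1434502_x_at, read 183, 25.8, 13.5 and 25.6 in CG_Tg, CG_WT, PBS_Tg and PBS_WT, again Present on all. It gave 7.10-fold and 13.6-fold over the chlorhexidine-treated wild-type and vehicle-treated transgenic arrays. The remaining Slc4a1 probe set, 1431743_a_at, was Absent on every array, at 0.819 to 5.26.

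Among red cell enzymes, Car2 encodes carbonic anhydrase 2, which interconverts carbon dioxide and bicarbonate and is also made in osteoclasts and some epithelia. Its gene lies on chromosome 3 at 14886269 to 14900770. Probe set 1448752_at read 487 in chlorhexidine-treated transgenic tissue, 78.1 in chlorhexidine-treated wild type, 109 in vehicle-treated transgenic and 154 in vehicle-treated wild type, Present on all. The first array was 6.24-fold above chlorhexidine-treated wild type and 4.45-fold above vehicle-treated transgenic, but 3.16-fold above vehicle-treated wild type. Unlike Alas2, Car2 was lower in chlorhexidine-treated wild type than in vehicle-treated wild type, by 1.97-fold (log2 difference -0.98), just inside the 2-fold limit.

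Trim10 and Tent5c belong to late maturation. Trim10 encodes a RING-finger protein linked to terminal erythroid differentiation in mouse cells, and lies on chromosome 17 at 36869496 to 36877833. Probe set 1419311_at read 68.0 in chlorhexidine-treated transgenic tissue, 16.4 in chlorhexidine-treated wild type, 10.3 in vehicle-treated transgenic and 10.4 in vehicle-treated wild type, where it was Absent. The fold was 4.14 over chlorhexidine-treated wild type, 6.62 over vehicle-treated transgenic and at least 6.53 over vehicle-treated wild type. Tent5c, written Fam46c in older annotation, encodes a poly(A) polymerase that lengthens the tails of selected messenger RNAs and is known from plasma cells as well as red cell precursors. It lies on chromosome 3 at 100468057 to 100489192. Probe set 1448021_at read 661, 168, 112 and 169 in CG_Tg, CG_WT, PBS_Tg and PBS_WT, Present on all, which is 3.93-fold, 5.90-fold and 3.91-fold higher. The dimmer probe set, 1429682_at, read 27.1, 8.56, 11.8 and 16.0 in CG_Tg, CG_WT, PBS_Tg and PBS_WT. Against CG_WT, where it was Absent, it was at least 3.16-fold higher, against PBS_Tg at least 2.30-fold, and against PBS_WT 1.69-fold.

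Klf1 encodes the zinc-finger factor that switches on adult beta globin and much of the late red cell programme, and lies on chromosome 8 at 84901982 to 84905291. Its probe set 1418600_at read 15.3 in chlorhexidine-treated transgenic, 19.1 in chlorhexidine-treated wild-type, 2.63 in vehicle-treated transgenic and 10.5 in vehicle-treated wild-type tissue, Absent on all 4. No fold is given, because neither side was detected.

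**Figure D1:**
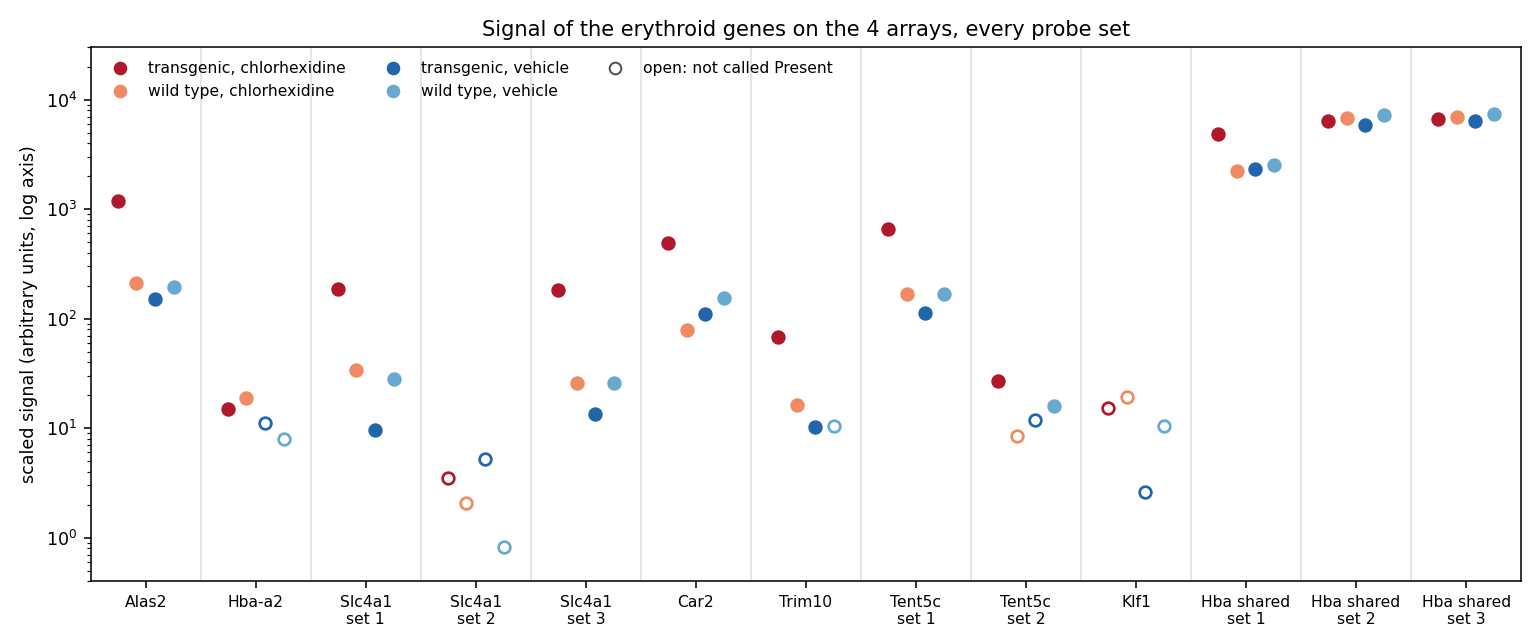
Scaled signal (log axis, arbitrary units) of every probe set of the 7 genes on the 4 arrays, 1 point per array, filled where Present and open where Marginal or Absent; set 1 of Slc4a1 and of Tent5c is the one used for the gene, and the 3 probe sets at the right read Hba-a2 and Hba-a1 together. Alas2, Slc4a1 (sets 1 and 3), Car2, Trim10 and Tent5c have the chlorhexidine-treated transgenic point on top, Klf1 is open throughout, and of the shared globin sets only the first, at 4827 units, has it on top.

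Of the 7 genes, 6 were Present on at least 1 array and 5 also reached the brightness limit on the chlorhexidine-treated transgenic array. All 5 were called higher there than in chlorhexidine-treated wild type, a direction in which 0.784% of the 12754 genes Present on at least 1 array were called (0.964% were lower). All 5 were likewise called higher than in vehicle-treated transgenic tissue, where 3.81% of genes were higher and 1.4% lower. The members were picked on these contrasts, so nothing is read from either count. The median log2 difference of the 7 was 2.05 against chlorhexidine-treated wild type and 2.56 against vehicle-treated transgenic tissue, and that of all genes was -0.03 and 0.00.

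Without the transgene, chlorhexidine called none of the 7 in either direction, where 8.22% of genes were higher and 4.93% lower. Only 3 of the 7, Alas2, Car2 and Tent5c, were bright enough on either wild-type array to be called, so nothing is read from the 0 for the other 4. Their median log2 difference was 0.29 in that comparison, and single values ran between -0.98 for Car2 and 1.24 for the dim Hba-a2 probe set. Without chlorhexidine, the transgenic array called none of the 7 against wild type, where 0.957% of genes were higher and 0.502% lower. The same 3 genes were the ones bright enough on either vehicle array. The median was -0.49, beside -0.04 for all genes. Of the 7 log2 differences 6 were below 0, of which that of Klf1 rests on Absent calls only. The signs depend on scaling: with the signals as deposited, Alas2 was at 0.055, Trim10 at 0.39 and the median of all genes at 0.37. The difference between the chlorhexidine differences of the transgenic and wild-type mice had a median of 2.57 for the 7 and 0.02 for all genes. It was 2.83 for Alas2, 4.0 for Slc4a1, 3.13 for Car2, 2.07 for Trim10 and 2.57 for Tent5c. It was -0.82 for the dim Hba-a2 probe set, and the 1.68 of Klf1 rests on Absent calls only.

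Past the 2-fold rule against all 3 other arrays at once, the chlorhexidine-treated transgenic array held 22 genes, 0.172% of those measured as Present, and 5 of them were members. By the same rule 72 genes stood above all others on the chlorhexidine-treated wild-type array, 15 on the vehicle-treated transgenic and 33 on the vehicle-treated wild-type array. The 17 genes that are no member were named after their values were seen. One, Slc25a37, is the mitochondrial iron importer mitoferrin 1 and belongs to the haem synthesis list. Neutrophil genes were among the rest: S100a9 read 930, 80.5, 61.8 and 14.0 in CG_Tg, CG_WT, PBS_Tg and PBS_WT, and S100a8 read 1066, 257, 108 and 28.2 in CG_Tg, CG_WT, PBS_Tg and PBS_WT. Lcn2, which encodes an iron-trapping neutrophil protein, read 315, 122, 65.5 and 34.9 in CG_Tg, CG_WT, PBS_Tg and PBS_WT. For these 3 genes the CG_WT array was the next highest and the PBS_WT array the lowest. CG_WT was next highest for Alas2 too. Its lowest array was PBS_Tg after scaling but PBS_WT in the signals as deposited, 164.6 against 171 in PBS_Tg. E2f2, a cell cycle factor known from terminal red cell divisions in mice, read 68.2, 21.8, 11.1 and 30.6 in CG_Tg, CG_WT, PBS_Tg and PBS_WT. The others were Mmp8, Krt14, Apol11b, Ppbp, Il1r2, Dmkn, Eif2s3y, Prg4, Chil3, Fcna, Clec1b and Vsig4.

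**Figure D2:**
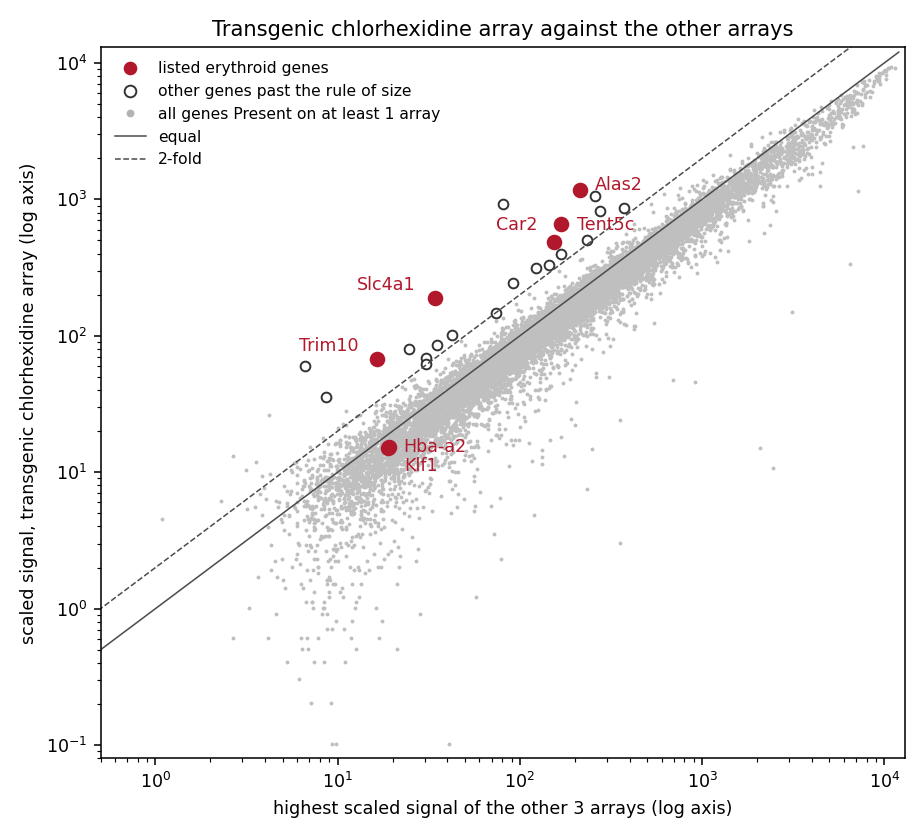
Scaled signal on the chlorhexidine-treated transgenic array (vertical, log axis) against the highest of the other 3 arrays (horizontal, log axis), 1 point per gene; red points are the 7 genes, open circles the 17 other genes past the rule, and the lines mark equal and 2-fold signal. Car2, Alas2, Slc4a1, Trim10 and Tent5c lie above the 2-fold line, and Klf1 and Hba-a2 lie below the line of equal signal at 15.3 and 15.0 units.

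Which genes had the profile most like the 7 was measured by the Euclidean distance of the centred log2 signals over the 4 arrays to the members' median profile, among 9808 genes bright enough on the chlorhexidine-treated transgenic array. The nearest was Slc25a37 at 0.45, with 817 in chlorhexidine-treated transgenic tissue, 276 in chlorhexidine-treated wild type, 187 in vehicle-treated transgenic and 184 in vehicle-treated wild type. Next came Clec1b at 0.68, a receptor of platelets and some macrophages, the decoy receptor gene Il1r2 at 0.70 and E2f2 at 0.73. The platelet genes Gp1bb, Ppbp and Tubb1 followed at 0.76, 0.87 and 0.95, with Isg20 at 0.77, Prg4 at 0.87 and Dmkn at 0.95. Tent5c itself lay at 0.18, Trim10 and Alas2 at 0.52 and 0.53, Car2 at 0.99 and Slc4a1 at 1.23. Hba-a2 lay at 1.77 and Klf1 at 1.85. Car2, Slc4a1, Hba-a2 and Klf1 were thus farther from the members' median than all 10 genes named here. That median was made from the 7 members themselves, the dim Hba-a2 probe set and the Absent Klf1 included. The candidates had to be bright on the array the members were picked for. Nothing is therefore read from the distances of members or of other genes.

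Lists of the red cell programme from general knowledge gave 74 further genes, of which 62 had a value and 45 were Present on at least 1 array. Against chlorhexidine-treated wild type 3 of the 45 (6.67%) were called higher and 0 lower in chlorhexidine-treated transgenic tissue, beside 0.784% higher among all genes. Against vehicle-treated transgenic tissue 1 of the 45 (2.22%) was higher and 0 lower, beside 3.81% higher among all genes. Their median log2 difference was 0.21 and -0.06 in these comparisons. In wild type 3 of the 45 (6.67%) were called lower with chlorhexidine than with vehicle, beside 4.93% lower among all genes. The lists were written with earlier results of these data known, so nothing is read from these shares.

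Of the haem synthesis list, all 14 measured genes were Present, and Alas2 and Slc25a37 alone were called, higher in both comparisons. Slc25a37 was 2.96-fold and 4.38-fold higher. Fech, the ferrochelatase that puts iron into haem, read 1591, 905, 1417 and 1497 in CG_Tg, CG_WT, PBS_Tg and PBS_WT. Alas1, the synthase of other tissues, read 505, 424, 707 and 748 in CG_Tg, CG_WT, PBS_Tg and PBS_WT. Chlorhexidine-treated wild type was thus the lowest array for both. The list's median was 0.30 against chlorhexidine-treated wild type and -0.05 against vehicle-treated transgenic tissue.

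The membrane list had 9 Present genes of 16 measured, and Slc4a1 alone was called. Band 3's partners did not follow it past 2-fold: ankyrin, Ank1, read 545, 434, 635 and 627 in CG_Tg, CG_WT, PBS_Tg and PBS_WT, and beta spectrin, Sptb, read 213, 168, 268 and 312 in CG_Tg, CG_WT, PBS_Tg and PBS_WT. Both are also made in muscle. Protein 4.2, Epb42, which binds band 3, was Present on the first array alone by 1 probe set, at 15.6, and was Absent at 1.77, 2.72 and 0.351 in CG_WT, PBS_Tg and PBS_WT. That signal is too dim for a call, and the Epb42 probe set used for the gene was Absent throughout. Rhag, Rhd and Ermap, more restricted to red cells, were Absent on all arrays.

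Maturation and red cell enzyme genes contributed most calls: of 12 Present genes, 5 were higher than in chlorhexidine-treated wild type and 3 than in vehicle-treated transgenic tissue, the 3 being Trim10, Tent5c and Car2. The other pair was Bpgm, the enzyme that makes 2,3-bisphosphoglycerate, and Tspan33, a tetraspanin of red cell precursors and B cells. Bpgm read 1002, 465, 740 and 750 in CG_Tg, CG_WT, PBS_Tg and PBS_WT, and Tspan33 read 37.3, 18.3, 31.5 and 37.2 in CG_Tg, CG_WT, PBS_Tg and PBS_WT. For both, chlorhexidine-treated wild type was the low array, and the vehicle arrays lay close to or at the level of chlorhexidine-treated transgenic tissue. Mkrn1 was not called by its brightest probe set, at 304 and 273 on the chlorhexidine-treated transgenic and wild-type arrays. Of its 5 other probe sets, 3 were 2.20-fold, 2.30-fold and 2.34-fold higher in that comparison, so its probe sets disagree.

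Transcription factors and receptors stayed inside the 2-fold limits, though several were too dim to be called. Of 13 factors 8 were Present and 0 were called in either comparison, beside 0.784% and 3.81% called higher among all genes. Their median was -0.34 against chlorhexidine-treated wild type and 0.07 against vehicle-treated transgenic tissue. Gata1, Tal1 and Myb lay below the brightness limit on all 4 arrays and could not be called. Gata1 read 23.1, 13.3, 18.4 and 19.3 in CG_Tg, CG_WT, PBS_Tg and PBS_WT, and Nfe2, Gfi1b and Hemgn were Absent on all. Of the 7 receptor and iron uptake genes 0 were called, with medians of -0.27 and -0.12. Tfrc, the transferrin receptor, read 362, 414, 445 and 482 in CG_Tg, CG_WT, PBS_Tg and PBS_WT by its brightest probe set, lowest in CG_Tg. A dimmer Tfrc probe set, 1422966_a_at, read 35.6, 26.3, 30.0 and 17.4 on the same arrays. It was highest in CG_Tg and Absent in PBS_WT, so the Tfrc probe sets disagree. The erythropoietin receptor gene Epor read 11.1, 20.9, 14.4 and 35.6 in CG_Tg, CG_WT, PBS_Tg and PBS_WT, lowest in CG_Tg. Epor lay below the brightness limit on CG_Tg, CG_WT and PBS_Tg, so it could not be called in either comparison. Nothing is read from the 0 of either list.

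**Figure D3:**
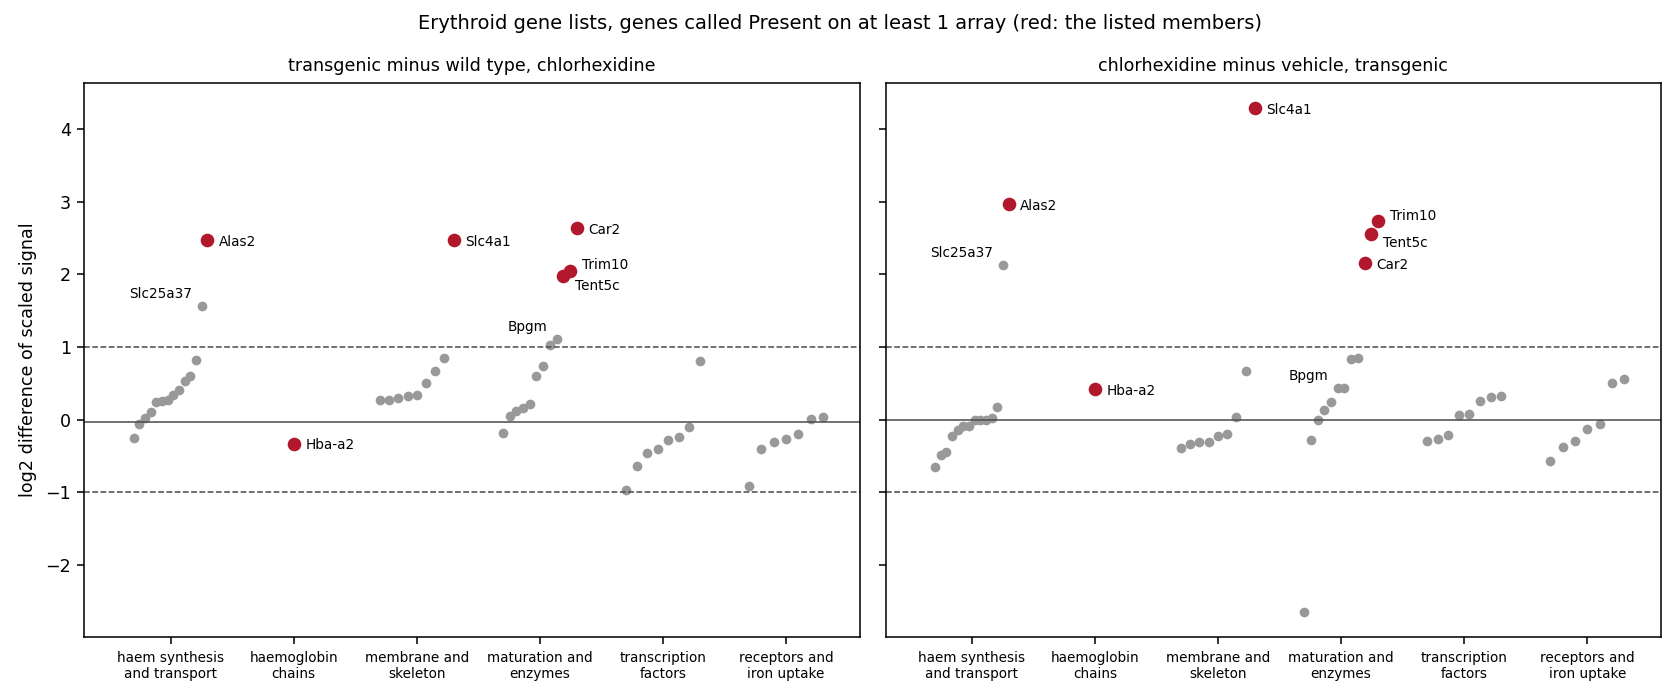
Log2 difference of each erythroid list gene that was Present on at least 1 array, by role, with the chlorhexidine-treated transgenic array set against chlorhexidine-treated wild type (left) and vehicle-treated transgenic tissue (right); red points are members, the solid line is the median of all genes and dashed lines mark 2-fold. Alas2, Slc4a1, Car2, Trim10, Tent5c and Slc25a37 lie above the upper dashed line in both panels, and the factor and receptor genes lie between the dashed lines.

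Other carbonic anhydrase genes had other patterns. Of 13 Present genes, Car2 and Car14 were called higher than in chlorhexidine-treated wild type and Car12 lower, and Car2, Car5b and Car13 were called higher than in vehicle-treated transgenic tissue. Car14 read 177 in chlorhexidine-treated transgenic tissue and 76.9 in chlorhexidine-treated wild type, but 222 and 306 on the vehicle-treated transgenic and wild-type arrays.

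Sums of the markers of other blood cells were highest in CG_Tg for some cell types and not for others. Of 10 platelet markers 8 were measured and 5 Present, and their summed signal was 1182, 895, 724 and 777 in CG_Tg, CG_WT, PBS_Tg and PBS_WT. Ppbp was higher in both comparisons, at 242, 91.2, 63.7 and 42.1 in CG_Tg, CG_WT, PBS_Tg and PBS_WT, and Pf4 read 722, 621, 572 and 641 in CG_Tg, CG_WT, PBS_Tg and PBS_WT. Itga2b read 63.4, 85.9, 35.3 and 35.4 in CG_Tg, CG_WT, PBS_Tg and PBS_WT, lower in CG_Tg than in CG_WT. Gp1bb read 40.4, 23.4, 11.4 and 13.7 in CG_Tg, CG_WT, PBS_Tg and PBS_WT. Gp9, Present in CG_Tg alone, read 35.3, 9.05, 0.965 and 7.61 in CG_Tg, CG_WT, PBS_Tg and PBS_WT. The sum was highest in CG_Tg, and of the 5 Present markers 4 were above CG_WT and 5 above PBS_Tg. Their median log2 differences were 0.79 and 1.83, beside -0.03 and 0.00 for all genes. Granulocyte precursor markers summed to 152, 82.5, 64.7 and 77.3 in CG_Tg, CG_WT, PBS_Tg and PBS_WT. Of the 7 only Ngp was Present, at 42.2, 12.3, 21.5 and 22.5 in CG_Tg, CG_WT, PBS_Tg and PBS_WT, and Mpo, Elane and Ctsg were Absent on all. Markers of osteoclasts, which also make Car2, summed to 675, 905, 459 and 395 in CG_Tg, CG_WT, PBS_Tg and PBS_WT. Most of that sum was Ctsk, at 492, 724, 228 and 164 in CG_Tg, CG_WT, PBS_Tg and PBS_WT, and Acp5 read 148, 142, 164 and 188 in CG_Tg, CG_WT, PBS_Tg and PBS_WT. Markers of plasma cells, which also make Tent5c, summed to 1641, 1925, 3081 and 5688 in CG_Tg, CG_WT, PBS_Tg and PBS_WT. Xbp1, which other secretory cells also make, read 1210, 1514, 1220 and 1407 in CG_Tg, CG_WT, PBS_Tg and PBS_WT. Jchain, more restricted to plasma cells, was called higher in CG_Tg than in CG_WT, at 149, 73.9, 1382 and 3100 in CG_Tg, CG_WT, PBS_Tg and PBS_WT, and Pou2af1 read 14.9, 7.97, 72.7 and 250.2 in CG_Tg, CG_WT, PBS_Tg and PBS_WT. Xbp1 was lower in CG_Tg than in CG_WT, as were Sdc1, at 104 and 169, and Prdm1, at 22.1 and 37.3. Jchain and Pou2af1 were higher, as was Irf4, at 82.0 and 61.6, and Mzb1 read 47.1 and 45.9. The list's median log2 difference was 0.04 against CG_WT and -0.42 against PBS_Tg. Jchain, Mzb1 and Pou2af1 were called lower in CG_Tg than in PBS_Tg. Macrophage markers summed to 7710, 7992, 5378 and 5028 in CG_Tg, CG_WT, PBS_Tg and PBS_WT, close together on the chlorhexidine arrays. The part of these cells in the members' signals was not tested.

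Haem and haemoglobin clearance genes gave 0 calls among 8 Present genes against chlorhexidine-treated wild type. Hmox1, haem oxygenase 1, read 152, 181, 83.3 and 31.0 in CG_Tg, CG_WT, PBS_Tg and PBS_WT. Lrp1 alone was called higher than in vehicle-treated transgenic tissue. Of 9 cell cycle genes 0 were called against chlorhexidine-treated wild type, with all 9 log2 differences below 0 and a median of -0.42, and Cdk1, Birc5 and Mcm5 were called higher than in vehicle-treated transgenic tissue.

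The labelled tissue showed its own markers. All 10 mesothelial markers were Present on every array, and their summed signal was 664, 441, 635 and 806 in CG_Tg, CG_WT, PBS_Tg and PBS_WT. Upk3b and Krt19 were called higher in chlorhexidine-treated transgenic than in chlorhexidine-treated wild-type tissue, and Wt1 higher than in vehicle-treated transgenic tissue. Upk3b read 155, 56.4, 184 and 189 and Krt19 read 55.1, 24.6, 44.6 and 98.7 in CG_Tg, CG_WT, PBS_Tg and PBS_WT. For both, chlorhexidine-treated wild type was the low array and was called lower than vehicle-treated wild type. Skeletal muscle markers summed to 49317, 49255, 46176 and 56485 in CG_Tg, CG_WT, PBS_Tg and PBS_WT. The transgene could not be checked here, since Nppb, the brain natriuretic peptide gene, and Apcs, the serum amyloid P gene, were Absent on all 4 arrays.

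Sex-linked transcripts also set the CG_Tg array apart. Xist, the RNA of the inactive X chromosome, read 10.7 in chlorhexidine-treated transgenic tissue, against 2438 in chlorhexidine-treated wild type, 929 in vehicle-treated transgenic and 2276 in vehicle-treated wild type. The Y-linked gene Eif2s3y read 398, 167, 167 and 3.75 in CG_Tg, CG_WT, PBS_Tg and PBS_WT. Uty read 68.9, 47.2, 39.2 and 3.86 and Kdm5d 66.9, 27.0, 49.9 and 4.92 in CG_Tg, CG_WT, PBS_Tg and PBS_WT, each Absent in PBS_WT. A second Kdm5d probe set, dim on all arrays, was Present in CG_WT at 8.07 and in PBS_WT at 4.80. The CG_Tg array thus had the lowest Xist and the highest Y-linked signals, PBS_WT had Xist with the lowest Y-linked signals by the probe sets used, and CG_WT and PBS_Tg had both. With 1 array per group, the sex of the mice, transgene, treatment and array cannot be told apart.

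**Figure D4:**
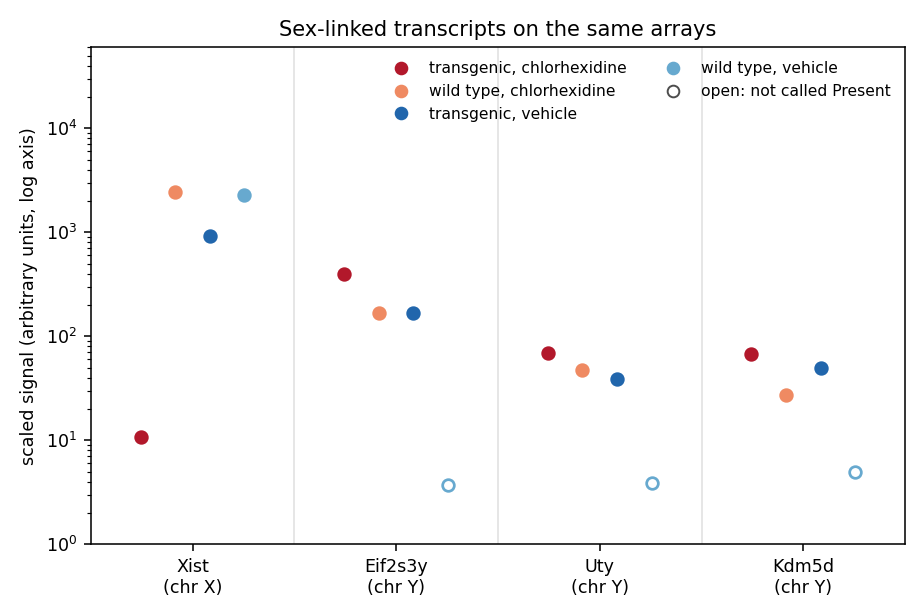
Scaled signal (log axis, arbitrary units) of Xist and 3 Y-linked genes, 1 point per array, filled where Present and open where not. Xist is lowest in chlorhexidine-treated transgenic tissue at 10.7, the same array has the highest point for Eif2s3y, Uty and Kdm5d, and the vehicle-treated wild-type points of those 3 genes are open.

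Across whole arrays, 50.5% to 55.1% of probe sets were Present and the trimmed means before scaling were 86.8 to 116. The vehicle-treated wild-type array stood apart in 2 control measures: its 18S ribosomal probe sets averaged 1052 scaled units, against 81.5 to 108 on the others, and its beta-actin signal was 5.81 times higher at the 3' end than in the middle, against 2.23 to 2.84. Without that array, 5 of the 7 genes were 2-fold above both remaining arrays. Among the 12754 genes Present on at least 1 array, 25 were so, members included. The members were picked on these contrasts, so nothing is read from that count.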

How the data were processed

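Total RNA of parietal peritoneum was labelled with biotin and hybridised to 4 Affymetrix mouse arrays, 1 per group, per the labels' protocols. The deposited signal of each probe set is a linear intensity, per the file headers, and comes with a detection call and a detection p-value from the authors. Neither algorithm nor scaling is given in the sources used here. The raw scanner files were lost, per the series' design text. The deposited series table differed from the array files in 0 values.

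The arrays hold 45101 probe sets, of which 64 are controls and were not used. The platform annotation gave 34945 of the remaining 45037 a single symbol, 932 several and 9160 none, and 34741 symbols were updated through Entrez identifiers to RefSeq GRCm38.p6. Each array was multiplied to a common 2% trimmed mean (factors 0.877 to 1.17), values below 0.1 were raised to it, and log2 was taken. The probe set brightest by mean log2 stood for a gene. Where the dimmer array was not Present, a fold was taken against the higher of that array's lowest Present signal and its own signal there, and is written "at least". Signal over background and the number of arrays limit precision.

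The members and gene lists were chosen with earlier results of these data known. Named genes were all members, the list genes past the rule of size or defining a list, and the 10 nearest profiles. No test was run, since each group has 1 array. The alternatives were the deposited scaling, quantile normalization, cyclic loess, median centring, a pseudocount of 32, dim probe sets kept, a gene's probe sets averaged, cross-hybridising probe sets dropped, and 1.5-fold and 3-fold limits. Leaving out the vehicle-treated wild-type array and using a shared globin probe set were chosen after seeing the data. The scripts were tested on simulated data. Python 3.11.15, pandas 2.3.3, numpy 2.4.6, scipy 1.17.1, matplotlib 3.10.9, R 4.3.3 and limma 3.58.1 were used.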

Additional observations from a re-analysis of the deposited data

Results flagged for a closer look

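Among the members, the other genes named in the report with values except Xist and the genes called in a list, 12 had chlorhexidine differences of opposite sign in the genotypes. Xist, which was not in that count, had -6.44 in transgenic and 0.10 in wild-type mice, a difference of -6.54. No difference between genotypes was tested, because each group has 1 array. For all of the 12 but Xbp1, the chlorhexidine array lay above its vehicle array in transgenic mice and below it in wild type. Many of the genes looked at were chosen for a high signal in CG_Tg, so nothing is read from that direction. The share of such genes among all genes was not counted. Of the members, Car2 had a log2 difference of 2.16 in transgenic and -0.98 in wild-type mice, 3.13 apart, and Tent5c had 2.56 and -0.01, 2.57 apart, although its wild-type value is close to 0.

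E2f2, which was in none of the red cell lists, had 2.63 in transgenic and -0.48 in wild-type mice, 3.11 apart. It was Absent in PBS_Tg, so 2.63 and 3.11 rest on an undetected level there. Of the red cell list genes, Tspan33 had 0.24 and -1.02 (1.27 apart) and Bpgm 0.44 and -0.69 (1.13 apart). Fech had 0.17 and -0.73 (0.89 apart) and Gata1 0.33 and -0.54 (0.87 apart). For these 4 the wild-type difference makes the larger share. Also outside the red cell lists, Krt19 had 0.31 in transgenic and -2.0 in wild-type mice (2.31 apart). Car5b had 1.15 and -0.74 (1.89 apart) and Ngp 0.97 and -0.87 (1.84 apart). Pf4 had 0.34 and -0.04 (0.38 apart). Xbp1 went the other way, with -0.01 in transgenic and 0.11 in wild-type mice, a difference of -0.12.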

How the results depend on the processing

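The 5 members called higher in chlorhexidine-treated transgenic than in chlorhexidine-treated wild-type tissue stayed at 5 in all 11 alternatives run, and against vehicle-treated transgenic tissue the count was 5 to 6, the sixth being Klf1 without the filter on dim probe sets. The choice of members fixes this direction, so it is no sign of stability. Members called between chlorhexidine-treated and vehicle-treated wild type were 0 as reported and 1 under quantile normalization, cyclic loess, median centring and the 1.5-fold limit (Car2, lower), and 1 without the filter (Hba-a2, higher). Between vehicle-treated transgenic and wild-type tissue they were 0 as reported, 2 without the filter (Slc4a1 and Klf1, lower) and 1 at 1.5-fold (Tent5c, lower). Other erythroid genes higher in chlorhexidine-treated transgenic than wild-type tissue were 3 as reported, 8 at 1.5-fold and 0 at 3-fold. With a pseudocount of 32, the log2 difference between the chlorhexidine arrays became 1.74 for Slc4a1 and 1.05 for Trim10. The median difference between the chlorhexidine differences was 2.07 to 2.76.

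Counts over all genes moved more. Genes higher in chlorhexidine-treated transgenic than wild-type tissue were 23 to 441 over the alternatives and lower ones 28 to 549. Against vehicle-treated transgenic tissue they were 148 to 1246 and 55 to 683, for chlorhexidine in wild type 423 to 2116 and 148 to 1896, for the vehicle arrays 31 to 458 and 4 to 453, and genes above all 3 other arrays 10 to 51. The split of higher against lower genes also moved with scaling. Between the chlorhexidine arrays it was 100 higher and 123 lower as reported, 130 higher and 105 lower under quantile normalization and 132 higher and 101 lower after median centring. Against vehicle-treated transgenic tissue it was 486 higher and 178 lower, and 329 higher and 320 lower on the deposited scale. For chlorhexidine in wild type it was 1049 higher and 629 lower, 1586 higher and 318 lower on the deposited scale and 723 higher and 1225 lower after median centring. For the vehicle arrays it was 122 higher and 64 lower, 458 higher and 7 lower on the deposited scale, 92 higher and 94 lower under quantile normalization, 98 higher and 95 lower under cyclic loess and 89 higher and 119 lower after median centring. The median of all genes ran between -0.07 and 0.04 for the chlorhexidine arrays, -0.20 and 0.00 for chlorhexidine in transgenic mice, -0.23 and 0.25 in wild type, and -0.17 and 0.37 for the vehicle arrays. The cause was not tested. No paired analysis was possible because each group has 1 array.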
